A study of Mus musculus with 30 samples.

Results

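Genes of the voltage-gated sodium and calcium channels were followed in the subventricular zone (SVZ) and striatum of 15 mice. Members were chosen by symbol, as the sodium channel pore genes (Scn followed by a number and a) and beta subunits (Scn, number, b), and the calcium channel pores (Cacna1), alpha2delta (Cacna2d), beta (Cacnb) and gamma (Cacng) subunits. Of these symbols 40 stood in each count table and 38 are described, and 32 of the 16375 genes kept in the SVZ and 33 of the 15419 kept in the striatum were described channel genes that exceeded a CPM (the count of a gene scaled to a common library size) of 1 in at least 3 libraries. The rule uses symbols and level and no measured difference between groups, though earlier results of these data were known when it was set. In all, 53278 genes were listed for the SVZ and 50508 for the striatum.

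Mice were of the C57Bl/6 strain and 6 to 8 weeks old, and 1 library was made per mouse and tissue. NestinTK+ mice carry a viral thymidine kinase driven by an enhancer of the Nestin gene, so that ganciclovir (GCV) kills dividing cells of the neural precursor lineage, whereas NestinTK- mice lack the transgene. The ablated group was 5 NestinTK+GCV mice, given GCV for 4 weeks by a minipump under the skin, and the 10 controls comprised 3 NestinTK-GCV mice, 4 mice with the transgene given phosphate-buffered saline (PBS) for the same time (NestinTK+PBS) and 3 given PBS without it (NestinTK-PBS). The sources give no sex, litter or dissection batch for single libraries. The study's RNA methods name both male and female mice, so sex could not be taken into account. Libraries of GCV mice carry the lower numbers and those of PBS mice the higher ones, so an effect of GCV and one of library order cannot be told apart. Mouse numbers fall in a lower and a higher series. All NestinTK-PBS mice are of the lower series and all ablated mice of the higher, while the other groups hold both. A difference between groups and one between mouse series thus cannot be fully told apart.

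Sodium channels open rapidly on depolarisation and carry the upstroke of the action potential. Their pore is 1 large protein, and beta subunits, small adhesion proteins of the immunoglobulin type, set the gating and the place of the pore in the membrane. Calcium channels turn depolarisation into calcium entry: CaV1 channels act on excitability and gene expression, CaV2 channels trigger transmitter release, and CaV3 channels open near rest and favour bursts. Their alpha2delta and beta subunits bring the pore to the surface. Most gamma subunits of the brain are known as TARPs, which traffic and tune AMPA-type glutamate receptors rather than calcium channels. Medium spiny neurons, the projection neurons of the striatum, are known for a high level of the sodium channel subunit beta4.

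The subunit with the clearest difference between groups was Cacng7 (gamma-7, a TARP of type II), whose gene lies on chromosome 7 of GRCm38 at 3332955 to 3368221, plus strand, beside Cacng8 (3390683 to 3415648) and Cacng6 (3424195 to 3435667). The 250 bases before its RefSeq start are shown because it is the one member with an adjusted p under 0.05 in a contrast between groups. They lie at chr7:3332575-3332824 (GRCm38.p6, plus strand), and the RefSeq start at 3332825 is 130 bases before the GENCODE start. Capitals mark a GC box (GGGCGG or its reverse CCGCCC) and a CCAAT box (CCAAT or ATTGG), which do not overlap.
Cacng7 promoter: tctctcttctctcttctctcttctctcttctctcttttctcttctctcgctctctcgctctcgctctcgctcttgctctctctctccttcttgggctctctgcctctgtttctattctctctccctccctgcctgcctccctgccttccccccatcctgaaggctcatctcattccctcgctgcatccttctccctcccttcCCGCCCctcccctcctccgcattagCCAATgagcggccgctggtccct
The GC box was found on either strand in 32.7% and the CCAAT box in 33.8% of 32851 RefSeq windows of the same length, and a TATA box (TATAAA or TTTATA), found in 12.4% of windows, was not matched here. C and T made up 84% of these bases, against a median of 50.0% over all windows. The table of windows held 30 of the 38 channel symbols.

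Libraries held 8.36e+06 to 2.11e+07 counts in the SVZ and 2.63e+06 to 4.69e+06 in the striatum, of which channel genes took 0.260% to 0.479% and 0.438% to 0.564%. Depth differed between groups. SVZ libraries held 8.36e+06 to 9.60e+06 counts in ablated mice and 8.95e+06 to 2.11e+07 in controls. Striatal libraries held 2.63e+06 to 3.37e+06 and 2.78e+06 to 4.69e+06. Low genes were thus sampled less deeply in most ablated libraries. The SVZ samples are labelled as neural precursor cells, but their summed medium spiny neuron markers (11 genes) ran from 4292 to 13933 CPM against 122 to 605 CPM for 8 neuroblast markers, so the label and the markers do not match, and every SVZ library held RNA of striatal neurons. Neuroblast markers were lower in the ablated SVZ, with sums of 122 to 222 CPM against 208 to 605 CPM and 6 of 8 genes lower at an unadjusted p under 0.05. In these bulk samples fewer cells of a type and less RNA per cell cannot be told apart. Several libraries stood apart. In the striatum, NestinTK+PBS replicate 4 had a medium spiny neuron sum of 4927 CPM against 9553 to 13034 CPM in the other 14, with the highest interneuron (1161 CPM), oligodendrocyte (5234 CPM) and choroid plexus (1400 CPM) sums. In the SVZ, NestinTK+GCV replicate 2 and NestinTK-GCV replicate 3 had cortical excitatory neuron sums of 528 and 615 CPM, against 0.534 to 99.9 CPM elsewhere, together with the lowest medium spiny neuron sums (4292 and 5451 CPM). Ttr, the transthyretin gene of the choroid plexus, took over 1% of counts in SVZ libraries NestinTK-PBS replicates 1 and 2 and NestinTK+PBS replicate 1.

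The beta subunits of the sodium channel had the highest median share of the channel level in both tissues. In the striatum, where 3′ tags make CPM a measure per transcript, the 3 beta subunits described made up 27.8% to 38.8% of the summed channel level of a library (median 37.2%). In the SVZ, on the scale of CPM per kb of exon, they made up 22.6% to 45.0% (median 41.1%). Scn4b (beta4) led both tissues, at 1025 ± 199 CPM in the striatum and 131 ± 44.6 CPM per kb in the SVZ (mean ± SD, n = 15), and Scn2b (beta2), its neighbour on chromosome 9, followed at 829 ± 175 CPM and 65.3 ± 12.4 CPM per kb. Those 2 means differed by about the SD of either gene in the striatum, and by more than either SD in the SVZ.

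Other families followed at lower levels. In the striatum Cacnb4 (calcium channel beta4), at 826 ± 165 CPM, lay within 1 SD of Scn2b, and Scn2a (NaV1.2, an axonal pore) and Cacng2 (stargazin) came next at 224 ± 36.5 and 216 ± 48.1 CPM. Scn4b, Scn2b and Cacnb4 together held a median of 51.0% of the summed striatal channel level. In the SVZ Cacng4 (50.1 ± 16.6 CPM per kb), Cacng3 (34.9 ± 12.6) and Cacnb3 (calcium channel beta3, 28.4 ± 16.3) followed the 2 leading beta subunits, each within the larger SD of the pair from the next. Over the 32 genes measured in both tissues the control levels had a Spearman correlation of 0.669, given as a description, since the kits count transcripts differently and the tissues come from the same mice. Exons of antisense or neighbouring genes covered 16.0% of those of Cacnb4 and 7.32% of those of Cacnb2, so that reads of these 2 genes are uncertain where strand was not used in counting.

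Among pores, Scn2a and Scn8a (NaV1.6, the pore of the axon initial segment) were the leading sodium channels in both tissues, with Scn8a at 194 ± 27.3 CPM in the striatum and 11.9 ± 3.20 CPM per kb in the SVZ. The striatal pore with the highest calcium channel level was Cacna1e (CaV2.3) at 164 ± 41.1 CPM, while Cacna1h (CaV3.2) led in the SVZ at 13.3 ± 4.00 CPM per kb. The lowest members that were kept were Cacna2d4, Scn9a and Scn7a in the SVZ (means of 0.138 to 0.437 CPM per kb) and Cacng6, Cacna2d4, Scn7a and Cacng8 in the striatum (means of 0.647 to 0.889 CPM). Cacna1s, Cacna1f, Scn4a, Scn10a and Scn11a, pores known from skeletal muscle, retina and sensory neurons, did not pass in either tissue, and Cacng6 did not pass in the SVZ.

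**Figure D1:**
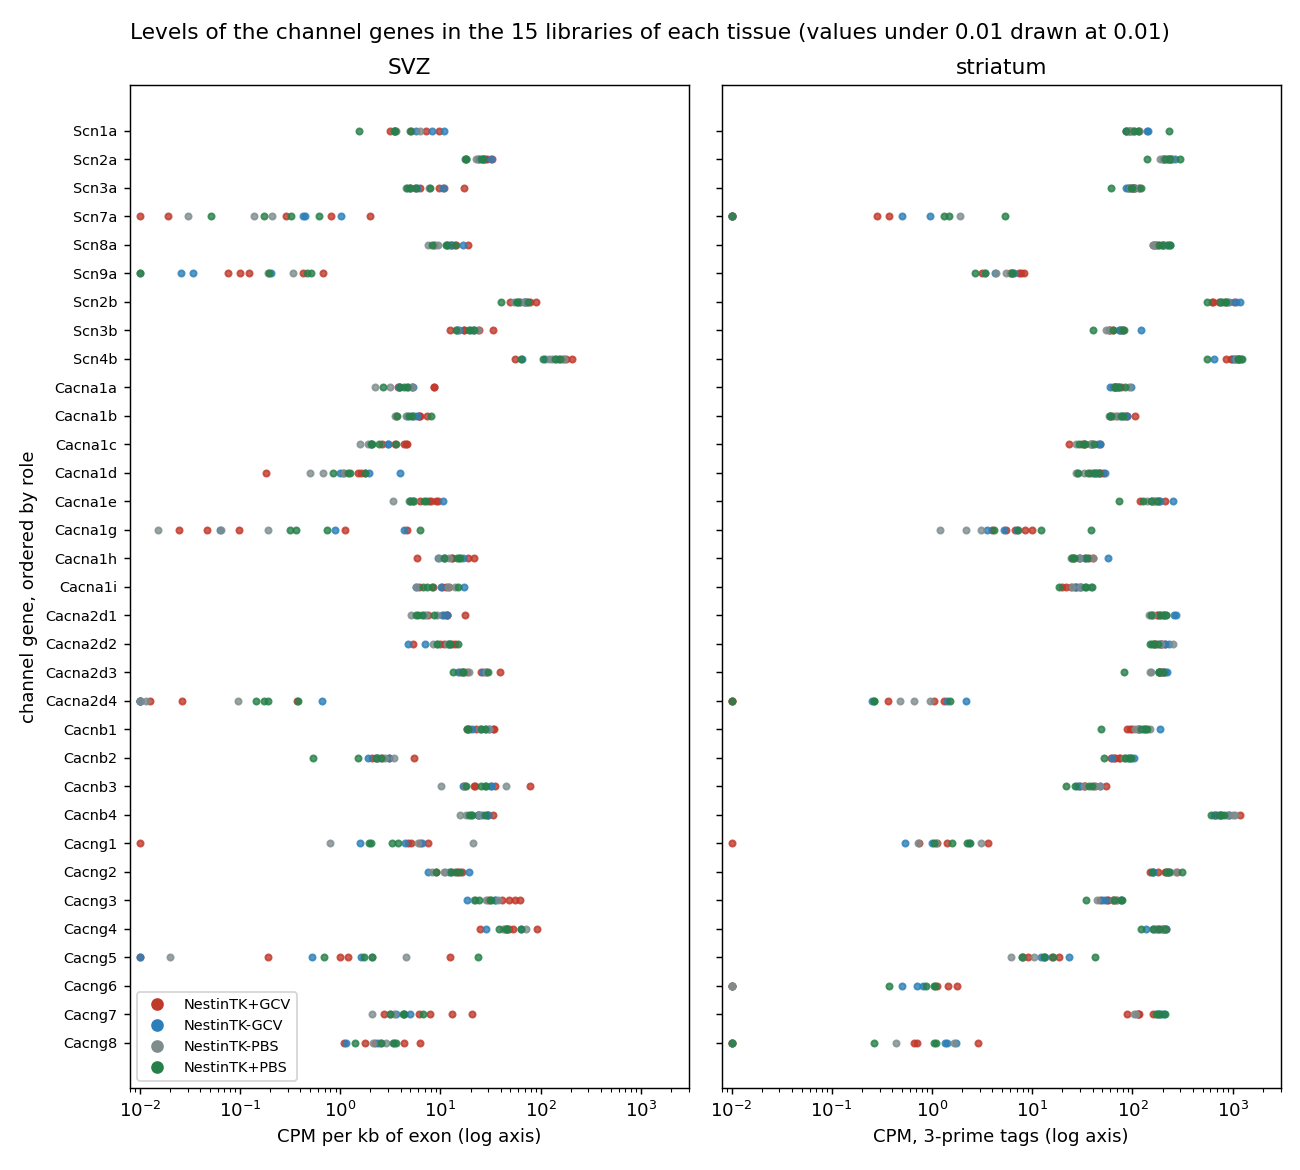
Level of every channel gene in each library, with SVZ values in CPM per kb of exon and striatum values in CPM, on log axes; each point is 1 library, coloured by group, with values under 0.01 drawn at 0.01, and genes run from sodium channel pores to gamma subunits. Scn4b has the highest mean in both tissues, and Cacng5 and Cacna1g spread widely in the SVZ, with a coefficient of variation of 185% and 159%.

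In the SVZ, ablated mice were compared with all controls to ask whether loss of the precursors went with a change in channel transcripts. Cacng7 was the 1 channel gene called by edgeR at a p of at most 0.01 and a change of at least 2-fold, 1 of 32 against a background of 1.59% of all genes. No member reached an adjusted p under 0.05, which 0.00611% of all genes did (1 gene). At an unadjusted p under 0.05, 7 of 32 members were higher, against 3.73% of all genes, and 0 were lower, against 6.09% of all genes. In all, 26 of 32 members had a positive estimate, with a median log2 fold change of 0.28 against -0.03 over all genes. With library totals in place of TMM factors, these medians shifted to 0.13 and -0.16, with 24 of 32 estimates positive and 5 members higher at an unadjusted p under 0.05, against 1.76% of all genes.

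Markers of other cells moved with these groups too. Of the medium spiny neuron markers 9 of 11 had a positive estimate in the ablated SVZ (median log2 fold change 0.26), with sums of 4292 to 13933 CPM against 5451 to 11265 CPM in controls and none at an unadjusted p under 0.05. Of the interneuron markers 6 of 7 did (median 0.27, 1 higher at an unadjusted p under 0.05), with sums of 760 to 1019 CPM against 511 to 1037 CPM, and no marker of these 2 lists was at 0 in any library. All 4 choroid plexus markers were lower at an unadjusted p under 0.05, with sums of 18.3 to 233 CPM against 11.9 to 102363 CPM, and 1 of them was at 0 in at least 1 library. All 4 ependymal markers had negative estimates, 2 of them at an unadjusted p under 0.05, with sums of 20.2 to 168 CPM against 72.2 to 209 CPM. Mitochondrial genes took 13.1% to 17.0% of counts in ablated libraries and 6.69% to 15.2% in controls. The part of these differences in the channel estimates was not tested.

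Cacng7 in the ablated SVZ measured 6.72, 50.8, 31.9, 14.9 and 19.2 CPM in replicates 1 to 5. Its controls were 10.6, 12.0 and 8.72 CPM in NestinTK-GCV, 5.12, 8.48 and 7.60 CPM in NestinTK-PBS and 7.67, 16.4, 10.6 and 10.4 CPM in NestinTK+PBS mice. Replicates 2, 3 and 5 of the ablated mice lay above every control, replicate 4 lay within the control range and replicate 1 near the lower end of that range. The log2 fold change was 1.34 (SE 0.43, adjusted p = 0.370, edgeR), a ratio of 2.53. Without ablated replicate 2, the library with cortical markers and the highest Cacng7, it was 0.90 (adjusted p = 0.517) and the gene was no longer called. The call was lost as well without ablated replicate 3 (1.23, adjusted p = 0.481), without the 3 libraries rich in Ttr (1.18, adjusted p = 0.731) and without both libraries rich in cortical markers (0.88, adjusted p = 0.552). The part of these cells in the result was not tested.

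The other 6 members that were higher at an unadjusted p under 0.05 came from several families. Cacng3 (gamma-3, a TARP of type I) measured 114, 174, 135, 82.1 and 154 CPM in ablated mice and 50.8 to 105 CPM in controls (median 82.7), a log2 difference of 0.73 (SE 0.20, adjusted p = 0.347, edgeR). Cacna1c (CaV1.2, the main L-type pore) measured 75.4, 97.9, 54.9, 91.0 and 96.5 CPM against 33.3 to 76.3 CPM (median 43.4), a log2 difference of 0.73 (SE 0.21, adjusted p = 0.347). Of the 5 ablated libraries 4 lay above all controls for Cacng3 and 3 for Cacna1c, with the others within the control range.

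Cacna2d1 (alpha2delta-1, the target of gabapentin) differed by 0.61 (SE 0.21), Scn3a (NaV1.3, a pore best known from immature neurons) by 0.68 (SE 0.25), Cacna1a (CaV2.1, the P/Q-type pore) by 0.59 (SE 0.26) and Cacna1e by 0.45 (SE 0.20) on the log2 scale. For Scn3a the ablated libraries held 78.4, 69.2, 136, 120 and 215 CPM and the controls 56.6 to 132 CPM. Cacna2d1 measured 144, 217, 145, 93.2 and 135 CPM in ablated mice and 63.7 to 145 CPM in controls (median 87.6). In these genes the groups overlapped, and only 1 ablated library of Cacna2d1, replicate 2, lay above all controls.

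Without the 2 libraries rich in cortical markers, 7 members were higher at an unadjusted p under 0.05, against 3.67% of all genes, and 4 of them were among the earlier 7: Cacng7, Cacna1a and Cacna1e dropped out and Cacnb4, Scn2a and Scn4b came in. The low Cacna2d4 was then the 1 member lower, against 6.38% of all genes, and in the libraries left it passed the limit only through controls. Without the libraries rich in Ttr, 5 of the earlier 7 (Cacng7, Cacng3, Cacna1c, Cacna2d1 and Scn3a) were higher and no other member, against 2.57% of all genes. With only NestinTK-GCV mice as controls 1 member, Cacng3, was higher, against 2.28% of all genes. No member had all 5 ablated libraries above all 10 controls, which was so for 0.11% of all genes, or all below them, which was so for 0.147%.

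The sodium channel genes with the highest levels showed small differences in the SVZ. Scn4b measured 762, 276, 892, 828 and 1033 CPM in ablated mice and 314 to 842 CPM in controls (median 630), a log2 difference of 0.34 (SE 0.25, adjusted p = 0.728). Its low ablated value belonged to replicate 2 and its low control values to NestinTK+PBS replicate 4 (314 CPM) and NestinTK-GCV replicate 3 (326 CPM), the 3 libraries with the lowest medium spiny neuron sums. Scn2b measured 292, 230, 368, 336 and 421 CPM against 188 to 350 CPM. Scn2a measured 301, 356, 371, 342 and 420 CPM against 224 to 407 CPM, a log2 difference of 0.29 (SE 0.15). Scn3b (beta3), at 182, 93.6, 68.5, 93.7 and 133 CPM, overlapped with controls of 78.4 to 128 CPM, as did Scn8a at 205, 224, 200, 135 and 299 CPM against 119 to 262 CPM.

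The lowest p-values among negative estimates belonged to genes that were low or varied widely. Cacna2d4 was at 0 to 3.49 CPM in ablated mice and 0 to 6.18 CPM in controls, and Cacng5 (gamma-5, a TARP of type II) was at 0 to 17.4 CPM in all libraries but ablated replicate 2 (48.0 CPM) and NestinTK+PBS replicate 4 (90.2 CPM). Cacna1d (CaV1.3) measured 2.28, 22.3, 19.1, 20.2 and 13.4 CPM against 6.26 to 50.1 CPM. Of the genes with positive estimates, Cacnb3 measured 87.4, 312, 142, 88.6 and 68.5 CPM against 40.6 to 180 CPM, with replicate 2 the 1 ablated library above all controls. Cacng4 (gamma-4) measured 190, 88.7, 173, 167 and 325 CPM against 102 to 253 CPM. Scn1a (NaV1.1, the pore of fast-spiking interneurons) measured 39.3, 34.7, 80.5, 56.5 and 108 CPM against 17.1 to 120 CPM. In each of these genes the groups overlapped broadly.

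In the striatum none of the 33 members was called between ablated and control mice by edgeR, DESeq2 or limma-voom, against 0.694% of all genes with edgeR, and none reached an adjusted p under 0.05, against 0.182%. At an unadjusted p under 0.05, 4 of 33 members were lower, against 5.31% of all genes, and 0 were higher, against 5.19%. These were Cacng7, Cacnb2 (beta2 of calcium channels), Cacna1i (CaV3.3) and Scn7a, the last detected with at most 1 count in each ablated library. Scn7a exceeded a CPM of 1 in 4 libraries, all of them controls, so it entered the test through the group where it was higher. With a stricter filter, a CPM above 2 in 5 or more libraries, 3 of 29 members were lower, against 5.49% of all genes, and 0 higher, against 5.64%. The median log2 fold change was -0.10 over the members and 0.00 over all genes. No member had groups that did not overlap, which was so for 0.279% of all genes as higher and for 0.253% as lower. Without NestinTK+PBS replicate 4, 4 members were lower, against 5.79% of all genes, and none higher, against 5.68%: Cacnb1 came in for Scn7a.

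Cacng7, with a positive estimate in the SVZ, had the lowest p-value of the members in the striatum, with the opposite sign. In the ablated striatum it measured 87.7, 161, 113, 114 and 115 CPM. Its controls measured 195, 206 and 182 CPM in NestinTK-GCV, 110, 175 and 103 CPM in NestinTK-PBS and 179, 190, 171 and 210 CPM in NestinTK+PBS mice. All ablated libraries lay below the 7 control libraries of NestinTK-GCV and NestinTK+PBS mice, and the share of all genes with such groups was not counted. Replicate 1 was also below the NestinTK-PBS libraries, and the other 4 were within their range. The log2 difference was -0.54 (SE 0.16, adjusted p = 0.189, edgeR). It kept an unadjusted p under 0.05 without each of the 15 mice in turn, but not when only NestinTK-PBS mice served as controls (log2 difference of -0.13).

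**Figure D2:**
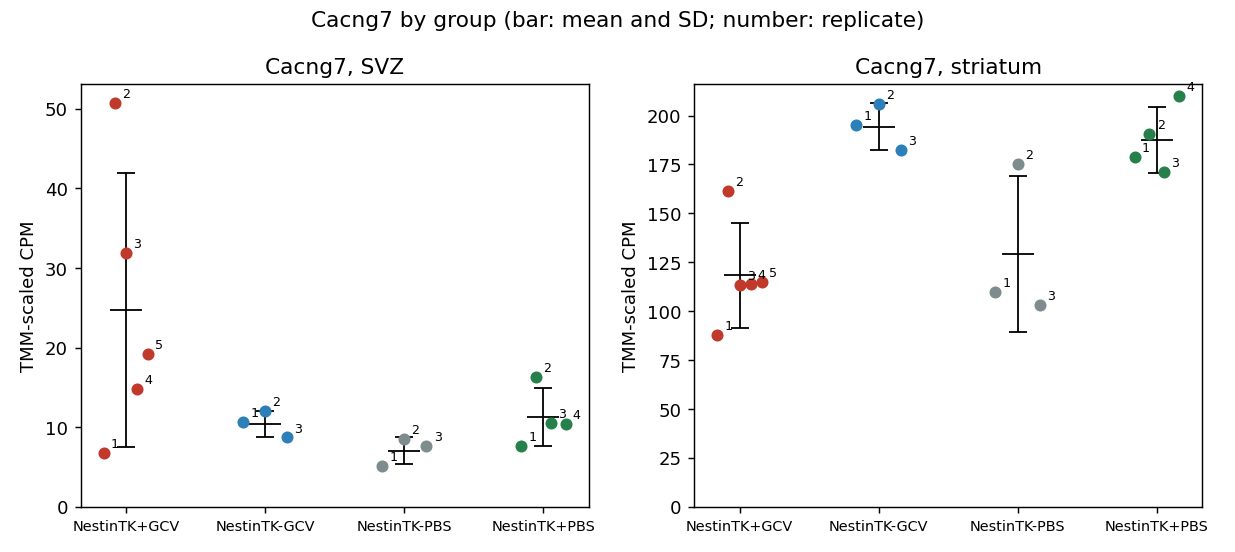
TMM-scaled CPM of Cacng7 in the SVZ (left) and striatum (right) by group; points are single libraries marked by replicate number, and bars give mean and SD. In the striatum the 5 ablated libraries, at 87.7 to 161 CPM, lie below all NestinTK-GCV and NestinTK+PBS libraries, while in the SVZ 3 of them lie above every control.

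Markers of other cells also moved with the striatal groups. Oligodendrocyte markers (5 genes) summed to 1811 to 2418 CPM in ablated mice and 1924 to 5234 CPM in controls, with 4 of 5 genes lower at an unadjusted p under 0.05, and interneuron markers (7 genes) to 365 to 470 CPM against 389 to 1161 CPM, with 2 of 7 lower. Medium spiny neuron markers, at 9553 to 11403 CPM against 4927 to 13034 CPM, had 1 of 11 lower. No defining marker of these 3 lists was at 0 in any library. Their part in the lower Cacng7 was not tested.

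The most abundant striatal members had small estimates. Scn4b measured 1161, 857, 1054, 973 and 975 CPM in ablated mice and 559 to 1233 CPM in controls (median 1128), a log2 difference of -0.04 (SE 0.15). Scn2b measured 848, 621, 630, 727 and 1029 CPM against 557 to 1188 CPM, and Cacnb4 912, 673, 770, 674 and 1177 CPM against 602 to 1066 CPM. Their groups overlapped over most of the range.

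Scn2a, at 207, 236, 250, 227 and 204 CPM, had a log2 difference of 0.00 (SE 0.13) from controls of 140 to 298 CPM. Scn8a, at 159, 171, 204, 167 and 181 CPM against 159 to 235 CPM, differed by -0.20 (SE 0.11), and Scn1a, at 85.3, 91.8, 94.3, 98.7 and 115 CPM against 86.1 to 232 CPM, by -0.32 (SE 0.18). Scn3a, at 117, 90.0, 105, 102 and 104 CPM against 61.4 to 122 CPM, and Scn3b, at 60.3, 80.2, 63.3, 74.6 and 58.5 CPM against 40.6 to 121 CPM, lay within the control range in every ablated library.

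Cacnb2 measured 61.7, 65.3, 67.0, 75.2 and 72.8 CPM against 51.5 to 104 CPM, a log2 difference of -0.32 (SE 0.14, adjusted p = 0.427). Cacna1i measured 19.7, 26.5, 28.1, 21.8 and 24.3 CPM against 18.7 to 39.5 CPM, and Scn7a, a pore-like sodium sensor, lay at 0 to 0.370 CPM against 0 to 5.34 CPM. Cacng2 (stargazin) measured 180, 277, 209, 224 and 151 CPM against 156 to 316 CPM. The lowest p-values among positive estimates belonged to Cacna1d, at 43.0, 47.2, 46.2, 38.0 and 50.5 CPM against 27.3 to 52.8 CPM (log2 difference 0.26, SE 0.15), and to Scn9a (NaV1.7) and Cacna1b (CaV2.2, the N-type pore), with log2 differences of 0.41 (SE 0.28) and 0.18 (SE 0.14). In all these genes the groups overlapped as well.

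**Figure D3:**
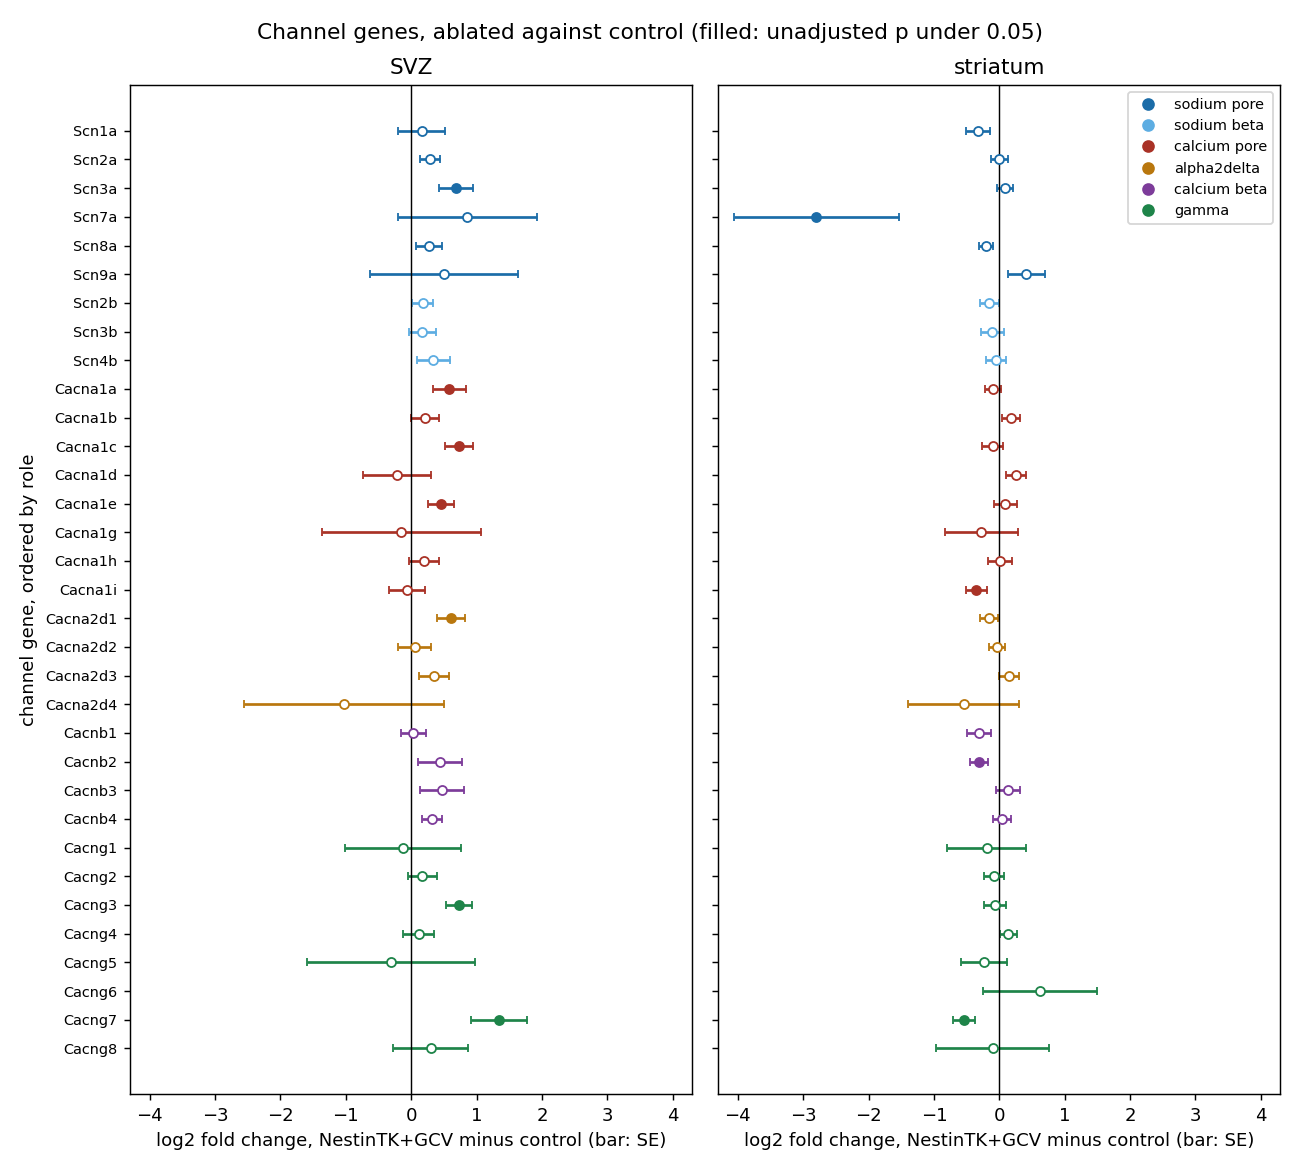
Log2 fold change of ablated against control mice for each channel gene in the SVZ (left) and striatum (right), with the SE as bars; colours give the subunit class, and filled points have an unadjusted p under 0.05. In the SVZ 26 of 32 points lie right of 0 and the 7 filled ones are all positive, whereas in the striatum the 4 filled points are all negative.

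Genes known to act with these channels were counted in the same way. Of 18 sodium channel partners, among them anchors of the axon initial segment and the subunits of the sodium leak channel, 3 were higher in the ablated SVZ at an unadjusted p under 0.05 and none lower. They were Sptbn4 (beta-IV spectrin; log2 difference 0.65, SE 0.22), Nalcn (the leak channel pore; 0.72, SE 0.26) and its subunit Unc80 (0.50, SE 0.19). Of 22 calcium channel partners tested there, 6 were higher and 1 lower, where 3.73% of all genes were higher and 6.09% lower. The lower one was Rem1, a small GTPase that inhibits calcium channels, listed at 0 in all ablated libraries and at a mean of 1.11 CPM in controls. Rem1 thus passed the limit only through controls. In the striatum Nfasc (neurofascin, an anchor of nodes and the initial segment) was the 1 sodium channel partner with an unadjusted p under 0.05, lower by 0.43 (SE 0.11), and of 23 calcium channel partners 1 was higher and 2 lower, where 5.19% of all genes were higher and 5.31% lower. Gem, among the lower and at a mean of 0.0567 CPM in ablated mice, passed the limit only through controls. None of these partners was called or had an adjusted p under 0.05 between ablated and control mice in either tissue.

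The 4 groups were then fitted together, with contrasts for transgene and for GCV. In the SVZ edgeR and limma-voom called no member in any of the 5 contrasts, and DESeq2 called 1, Cacna1g. The share of all genes called by DESeq2 was not counted. Cacna1g was high in NestinTK+PBS replicate 4 (63.1 CPM) and the libraries rich in cortical markers (47.1 and 43.8 CPM), against at most 11.4 CPM elsewhere. With edgeR the share of all genes called was 1.19% for NestinTK+GCV against NestinTK+PBS and 0.94% for NestinTK+GCV against NestinTK-GCV. It was 1.06% for NestinTK-GCV against NestinTK-PBS, 0.195% for NestinTK+PBS against NestinTK-PBS and 0.837% for the interaction of genotype and treatment. At an unadjusted p under 0.05 in edgeR, and in the same order, there were 4 of 32 members against 7.13% of all genes, 1 against 7.45%, 5 against 7.65%, 1 against 2.69% and 1 against 5.09%. Estimates for Cacng7 in the SVZ were 1.13 (SE 0.58) against NestinTK+PBS and 1.24 (SE 0.64) against NestinTK-GCV mice, and its interaction was 0.57 (SE 0.89, adjusted p = 1.00).

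In the striatum the GCV and PBS groups differed in Cacng7 in opposite directions with and without the transgene. The group means were 118 ± 26.7 CPM in NestinTK+GCV (SD, n = 5), 187 ± 16.9 in NestinTK+PBS (n = 4), 194 ± 11.8 in NestinTK-GCV (n = 3) and 129 ± 39.97 in NestinTK-PBS mice (n = 3). GCV minus PBS was -0.66 (SE 0.16, adjusted p = 0.0885, edgeR) on the log2 scale in NestinTK+ mice and 0.59 (SE 0.20, adjusted p = 0.116) in NestinTK- mice. The interaction, the difference between both, was -1.25 (SE 0.25, adjusted p = 0.0238, edgeR). Mouse series and library order run with these groups, the NestinTK-PBS mice being all of the lower series, so their part in the interaction cannot be told apart. Without NestinTK+PBS replicate 4 the interaction was -1.19 (adjusted p = 0.00788). NestinTK+GCV and NestinTK-GCV mice differed by -0.72 (SE 0.17, adjusted p = 0.0235, edgeR), which is less than 2-fold. All 5 libraries of the former lay below all 3 of the latter, and the share of all genes with such groups was not counted.

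For the interaction 2 of 33 members were called, against 3.28% of all genes, and 1 of 33, Cacng7, had an adjusted p under 0.05, against 0.817%. At an unadjusted p under 0.05 there were 8, against 15.1%, among them Cacng6, which passed the limit only through NestinTK+ mice. Cacng7 was also the single member with an adjusted p under 0.05 between NestinTK+GCV and NestinTK-GCV mice, against 3.13% of all genes. The second member called for the interaction, Cacna1g (CaV3.1), had one of -2.46 (SE 0.79, adjusted p = 0.124), and without NestinTK+PBS replicate 4 one of -1.44, which was not called. Contrasts in which no striatal member was called were NestinTK+GCV against NestinTK+PBS (background 1.35%), NestinTK+GCV against NestinTK-GCV (2.1%) and NestinTK-GCV against NestinTK-PBS (2.46%). At an unadjusted p under 0.05 these held 5 of 33 members against 10.1% of all genes, 5 against 17.7% and 8 against 16.1%. The 5 against NestinTK+PBS include Scn7a, which passed the limit only through controls. The 8 of NestinTK-GCV against NestinTK-PBS include Cacng6, at 0 in all NestinTK-PBS libraries and past the limit only through NestinTK+ mice.

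Between the PBS-treated groups 3 of 33 striatal members were called, against 0.83% of all genes, and 6 had an unadjusted p under 0.05, against 6.41%. Cacna1g measured 4.20, 12.2, 7.18 and 39.0 CPM in NestinTK+PBS mice and 1.19, 3.05 and 2.18 CPM in NestinTK-PBS mice. All of the former lay above all of the latter, and the share of all genes with such groups was not counted. The log2 difference was 2.84 (SE 0.60, adjusted p = 0.446, edgeR). Without replicate 4 of NestinTK+PBS it was 1.82 (SE 0.48, adjusted p = 0.381) and still called. Cacng5 measured 13.1, 16.2, 7.84 and 42.7 CPM against 6.20, 10.5 and 7.99 CPM, and its difference of 1.27 (SE 0.43) fell to 0.56 (SE 0.35) without that library. Cacng6 had 1 to 4 counts per library in NestinTK+PBS mice and 0 in all NestinTK-PBS libraries, so no fold change is given for it, and without that library it was not called. It exceeded a CPM of 1 in 4 libraries, all of NestinTK+ mice. The counts of 3 and 6 thus include a member that entered the test through the genotype where it was higher.

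The channel genes of NestinTK+PBS replicate 4 were often at the edge of the range. In its striatum 21 of 33 members (63.6%) were the highest or the lowest of the 15 libraries, against 28.0% of all genes kept, and in no other striatal library did the members' share pass 18.2%. The 6 highest were Cacna1g, Cacng5, Scn7a, Scn1a, Cacng2 and Cacng7. Scn1a measured 232 CPM against 85.3 to 142 CPM in the other 14, and Cacng2 316 against 151 to 277.

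Of the 15 lowest, Scn4b measured 559 CPM against 649 to 1233 CPM elsewhere, Cacna1e 74.2 against 119 to 251, Cacna2d3 (alpha2delta-3) 81.7 against 151 to 220 and Cacnb1 48.8 against 87.8 to 189. The SVZ library of the same mouse held the highest Cacna1g (63.1 CPM) and Cacng5 (90.2 CPM) of that tissue, and 6 of 32 members (18.8%) were extreme there, against 11.6% of all genes. Cacna1g in the SVZ was high in 3 libraries, this one and those rich in cortical markers (47.1 and 43.8 CPM), against at most 11.4 CPM in the other 12. Cacng5 was at 48.0 CPM in ablated replicate 2 and at most 17.4 CPM in the other 13.

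**Figure D4:**
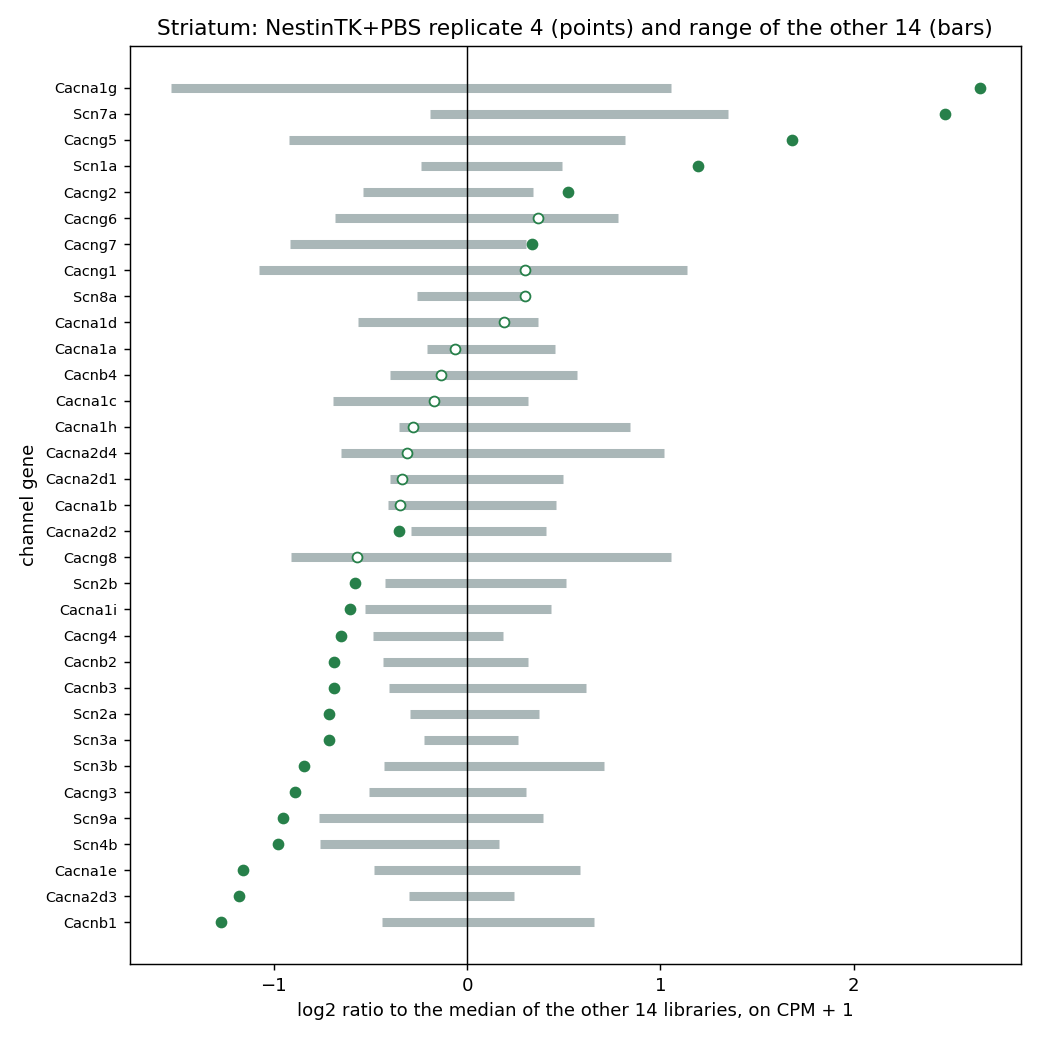
Channel genes of the striatum in NestinTK+PBS replicate 4, as the log2 ratio to the median of the other 14 libraries on CPM plus 1; grey bars give the range of these 14 and filled points lie outside it. Of 33 points 21 lie outside, with Cacna1g farthest on the high side and Cacnb1 farthest on the low side.

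The same mice gave both tissues, so the difference between striatum and SVZ was taken within each mouse and compared between ablated and control mice, over 14197 genes with limma. For Cacng7 the log2 level in the striatum exceeded that in the SVZ by 3.68, 1.67, 1.83, 2.93 and 2.58 in ablated mice and by 3.53 to 4.51 in controls. The mean differences were 2.54 and 4.14, and they differed by -1.61 (SE 0.32, adjusted p = 0.0762). For Cacna2d1, with the next lowest p-value, the striatum minus SVZ value was 0.13, -0.31, 0.38, 0.94 and 0.60 in ablated mice and 0.37 to 1.77 in controls, a difference of -0.75 (SE 0.23, adjusted p = 0.263), and the groups overlapped.

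No member had an adjusted p under 0.05 in this test, against 0.00704% of all genes, and 6 of 32 had an unadjusted p under 0.05, against 10.7% of all genes. Besides Cacng7 and Cacna2d1 these were Cacna1c, Cacng3, Cacnb2 and Scn8a, and all 6 estimates were negative. Without the 3 mice whose libraries stood apart, the differences were -1.35 for Cacng7 (adjusted p = 0.196) and -0.61 for Cacna2d1 (adjusted p = 0.396). Without ablated replicate 1, that of Cacng7 was -1.90 (adjusted p = 0.0213). The kits differ between tissues, so these values compare mice and not absolute levels.

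**Figure D5:**
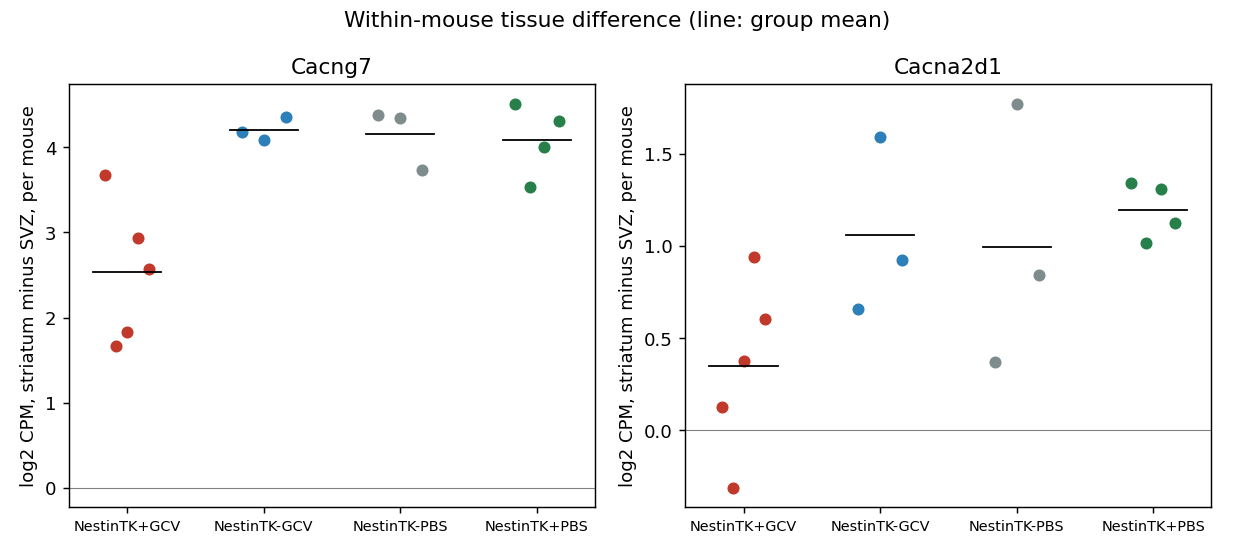
Log2 CPM in the striatum minus that in the SVZ of the same mouse for Cacng7 (left) and Cacna2d1 (right), 1 point per mouse, with group means as lines. For Cacng7 4 of 5 ablated mice lie below all controls, and for Cacna2d1 the 5 ablated mice, at -0.31 to 0.94, overlap with the controls, at 0.37 to 1.77.

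The genes with the most similar pattern to Cacng7 over the 15 striatal libraries were Tpm3-rs7, Gm9843, Uchl1, Astn2 and Pcyt1b (Pearson r of log2 CPM 0.88 to 0.90). For Tpm3-rs7 the r was 0.90, the Spearman rho 0.80, and the r without the 2 libraries farthest from the median, NestinTK+GCV replicate 1 and NestinTK-PBS replicate 3, was 0.88. Cacng5 was most like Hcn3 (r 0.92) and Cacna1g most like Gabbr2 (r 0.87, or 0.62 without NestinTK+PBS replicate 4 and NestinTK-PBS replicate 1). These are the highest of all genes kept, are given as a description, and the values share library and depth.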

How the data were processed

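The 2 deposited tables hold raw counts of reads per gene, which the authors made for the SVZ and the striatum of 15 mice. Per the labels and the study's methods, the SVZ kit was SMART-Seq v4 (whole transcripts) and the striatum kit QuantSeq 3′ FWD (transcript ends). The authors trimmed reads with Trimmomatic (0.36 in the submitters' processing notes), mapped them to GRCm38 with STAR 2.5.3a and counted them with featureCounts. The strand setting is not given in the sources used here. Groups came from the sample labels, and replicates are single mice numbered in accession order.

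Genes above a CPM of 1 in 3 or more libraries of the tissue entered the tests. Each tissue was fitted separately over all these genes with edgeR 4.0.16 (quasi-likelihood test, TMM factors, R 4.3.3), as ablated against control and as 4 groups. Adjusted p-values follow Benjamini and Hochberg over every gene tested. A gene was called at p of at most 0.01 and a change of at least 2-fold, the thresholds of the study, and calls at an adjusted p under 0.05 are given too. Printed CPM are TMM-scaled. The within-mouse difference of log2 CPM (prior count 2) was fitted with limma 3.58.1. DESeq2 1.42.0 and limma-voom served as alternatives, and the tests were checked on simulated counts. Positions and exon lengths are those of GENCODE vM21. In the shallowest striatal library, of 2.63e+06 counts, a CPM of 1 is fewer than 3 counts, which limits the lowest genes.

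Members, gene lists and tests were chosen with earlier results of these data known. Values per library are given for members called or with an adjusted p under 0.05 in any contrast, the 3 lowest p-values in each direction and the 5 highest levels per tissue, and the main brain sodium channel subunits; a few others were named after their values were seen. Of the genes the rule takes in, 2 are not reported here: they stayed in every fit but are in no count of members. Figures were drawn with matplotlib 3.10.9.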

Additional observations from a re-analysis of the deposited data

Results flagged for a closer look

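Groups of 4 or 5 libraries were searched for single values far from the rest by Dixon's ratio, over 66 groups of named genes, and 4 stood out, where chance gives about 1 in 20. In the SVZ these were Cacna2d4 in NestinTK+GCV replicate 2 (3.49 CPM), and Cacng5 in NestinTK+GCV replicate 2 (48.0 CPM) and in NestinTK+PBS replicate 4 (90.2 CPM). In the striatum it was the low Scn4b of NestinTK+PBS replicate 4 (559 CPM).

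The difference between GCV and PBS groups in striatal Cacng7 was not the same in NestinTK+ and NestinTK- mice, with an interaction of -1.25 on the log2 scale (adjusted p = 0.0238, edgeR). GCV cannot be told apart from library order here, nor the NestinTK-PBS group from its mouse series. The estimate was negative in NestinTK+ mice, where all 5 GCV libraries lay below all 4 PBS libraries, and positive in NestinTK- mice, where all 3 GCV libraries lay above all 3 PBS libraries. These are the values behind the interaction and no separate support, and the share of all genes with such groups was not counted.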

How the results depend on the processing

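The count of channel genes called in the ablated SVZ was 1, Cacng7. It was 3 with no filter on low counts and 0 with limma-voom, with the series of mouse numbers as a covariate, with library totals in place of TMM, with an adjusted p under 0.05, with only NestinTK-GCV or only NestinTK+PBS mice as controls, without the libraries rich in Ttr and without the 2 rich in cortical markers. Members that reached an unadjusted p under 0.05 only with no filter were Cacna1f, Scn4a and Cacng6. Each had most of its SVZ counts in 1 library (20 of 23, 23 of 27 and 54 of 59). With only NestinTK-PBS controls the count called was again 1, but Cacna1c (1.10) in place of Cacng7 (1.80), so that Cacng7 was not called with any control group alone. Leaving out each mouse gave 0 to 1. For the SVZ group contrasts the count of 0 became 2 with no filter and 1 with the DESeq2 test, and 0 to 1 without single mice. For the ablated striatum the count of 0 became 1 with only NestinTK-PBS mice as controls (Cacna1g) and 1 with only NestinTK+PBS mice (Scn7a). Scn7a passed the limit only through controls, where it was higher. Without single mice the count stayed at 0. For the striatal group contrasts the count of 4 ranged from 1 to 6 over 7 alternative settings, with 2 under limma-voom and 1 at an adjusted p under 0.05. Without single mice it was 2 to 4, with 2 without NestinTK+PBS replicate 4. The within-mouse count of 0 became 0 to 1. For the alternative tests, filters, normalisations and sets of mice, the share of all genes called was not counted. The member counts there thus have no background beside them. With no filter, 7.09% of SVZ genes were higher and 7.54% lower at an unadjusted p under 0.05 (edgeR), against 3.73% and 6.09% with the filter. The causes of these changes were not tested.

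Cacng7 kept its sign under every alternative run in both tissues. Among other log2 fold changes of ablated against control mice, these changed sign in the SVZ: Scn1a with the mouse series (-0.017), with only NestinTK-GCV controls (-0.52) and without Ttr-rich libraries (-0.029), Scn8a (-0.0028) and Cacng5 (2.04) with only NestinTK-GCV controls, Cacna1d (0.69) and Cacng5 (0.41) with only NestinTK-PBS controls, and Cacnb3 without the libraries rich in cortical markers (-0.020). In the striatum these were Scn2a with no filter (-0.00092), Cacna1g with limma-voom (0.39), Cacng2 (0.042) and Scn4b (0.16) with the mouse series, and Scn4b with library totals (0.0094). With only NestinTK-GCV controls they were Cacna1b (-0.036), Cacna1d (-0.043), Cacna1g (0.36), Cacng2 (0.15), Scn2a (-0.13) and Scn4b (0.063). With only NestinTK-PBS controls they were Cacna1g (1.67), Cacnb4 (-0.23), Cacng5 (0.64), Scn3a (-0.0075), Scn3b (0.077) and Scn8a (0.00050), and with only NestinTK+PBS controls Cacng6 (-0.041), Scn2b (0.042) and Scn3b (0.016). Without single mice, signs changed within these ranges: in the SVZ Cacna1d -0.39 to 0.093, Cacnb3 -0.062 to 0.64, Cacng5 -2.61 to 1.01, Cacng4 -0.17 to 0.30, Scn1a -0.11 to 0.35 and Scn3b -0.057 to 0.31, and in the striatum Cacna1g -0.43 to 0.47, Cacnb4 -0.11 to 0.11, Cacng2 -0.21 to 0.016, Cacng5 -0.40 to 0.082, Scn2a -0.058 to 0.046, Scn3b -0.17 to 0.0061 and Scn4b -0.12 to 0.0070.

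Library totals and the settings without the libraries rich in cortical markers or without 3 mice were added after seeing the data. The spread between SVZ libraries (biological coefficient of variation 0.939, against 0.251 in the striatum) and the low depth of the striatum limit the detection of differences in the lower genes. SVZ and striatum of the same mouse were paired in the within-mouse comparison. Between groups of mice, no paired analysis was possible because replicates were numbered in accession order and no label pairs mice of different groups.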
